A study of Mus musculus with 3 samples.

Results

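Proteasome and protein-folding (chaperone) genes were examined in a full list of called GLI3 peaks, weak ones included, from mouse forelimb buds. The 130 members were taken by gene symbol from 21851 protein-coding genes of the mm10 genome. Of these, 50 were proteasome genes (symbols Psma to Psmg followed by a digit). The other 80 were chaperone genes: the HSP90, HSP70, HSP110, HSP60, HSP10 and small heat shock protein genes, the Dnaja, Dnajb and Dnajc co-chaperones, and the Cct subunits. A promoter peak was a listed peak with its summit no more than 2 kb before or 1 kb after the point where a protein-coding transcript begins (the transcription start site, TSS). The members held 84 promoter peaks, out of 8111 at all protein-coding genes and 17149 peaks in the list.

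Binding was measured by ChIP-seq, which recovers and sequences the DNA that a protein occupies, on forelimb buds of E10.5 mouse embryos (mid-gestation, 32 to 35 somites). There were 2 GLI3-FLAG ChIP libraries and 1 input library of chromatin that was not immunoprecipitated, with limb buds pooled from 2 litters for each reaction, on a mixed strain background. The buds were dissociated with Liberase before fixation, and libraries were amplified with 15 PCR cycles. GLI3 was recovered through an N-terminal FLAG epitope on the endogenous Gli3 gene (the Gli3 3XFLAG allele), so its own promoter drove the tagged protein. The genotype label of all 3 libraries nevertheless reads wild type, and no library from untagged embryos was analysed here. A whole limb bud mixes mesenchyme and ectoderm and the list cannot assign a peak to either. The files hold a single peak list for these libraries with no value per replicate, and how the replicates entered the call is not stated. No value below therefore carries a replicate error and no difference could be tested against replicate spread. The list gives no read counts, so the reads behind each peak are not known here, although the study's methods state a minimum depth per library. Shares carry 95% Wilson intervals, which cover counting over genes or peaks and nothing else.

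The proteasome is the protease that degrades proteins tagged with ubiquitin. Its 20S core is a barrel of alpha and beta rings with the cutting sites inside, and the 19S particle on its end recognises, unfolds and feeds in substrates. Chaperones bind unfolded proteins and help them fold: HSP70 works with J-domain (DNAJ) co-chaperones, HSP90 finishes selected clients, and the HSP60 and CCT rings enclose theirs. GLI3 itself is a substrate, since without Hedgehog signal the proteasome trims it to a shorter transcriptional repressor.

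A listed promoter peak was found at 69 of the 130 members (53.1%, interval 44.5 to 61.4), in nearly equal shares of proteasome and chaperone genes. A promoter peak was present at 27 of 50 proteasome genes (54.0%, interval 40.4 to 67.0) and at 42 of 80 chaperone genes (52.5%, interval 41.7 to 63.1), against a background of 30.7% of all protein-coding genes. The list runs to weak peaks, so the same counts were made with a false discovery rate (FDR) under 0.05. This left 11 proteasome genes (22%, interval 12.8 to 35.2) and 24 chaperone genes (30.0%, interval 21.1 to 40.8), against 17.0% of all protein-coding genes. The proteasome interval takes in the background of this stricter count, and the chaperone interval lies above it. Symbols of mitochondrial ribosomal protein genes, another group of housekeeping genes, gave 44 of 78 (56.4%, interval 45.4 to 66.9) for any listed peak and 21 (26.9%) with an FDR under 0.05. The plot of shares by gene group shows how the 2 classes break down into families.

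**Figure D1:**
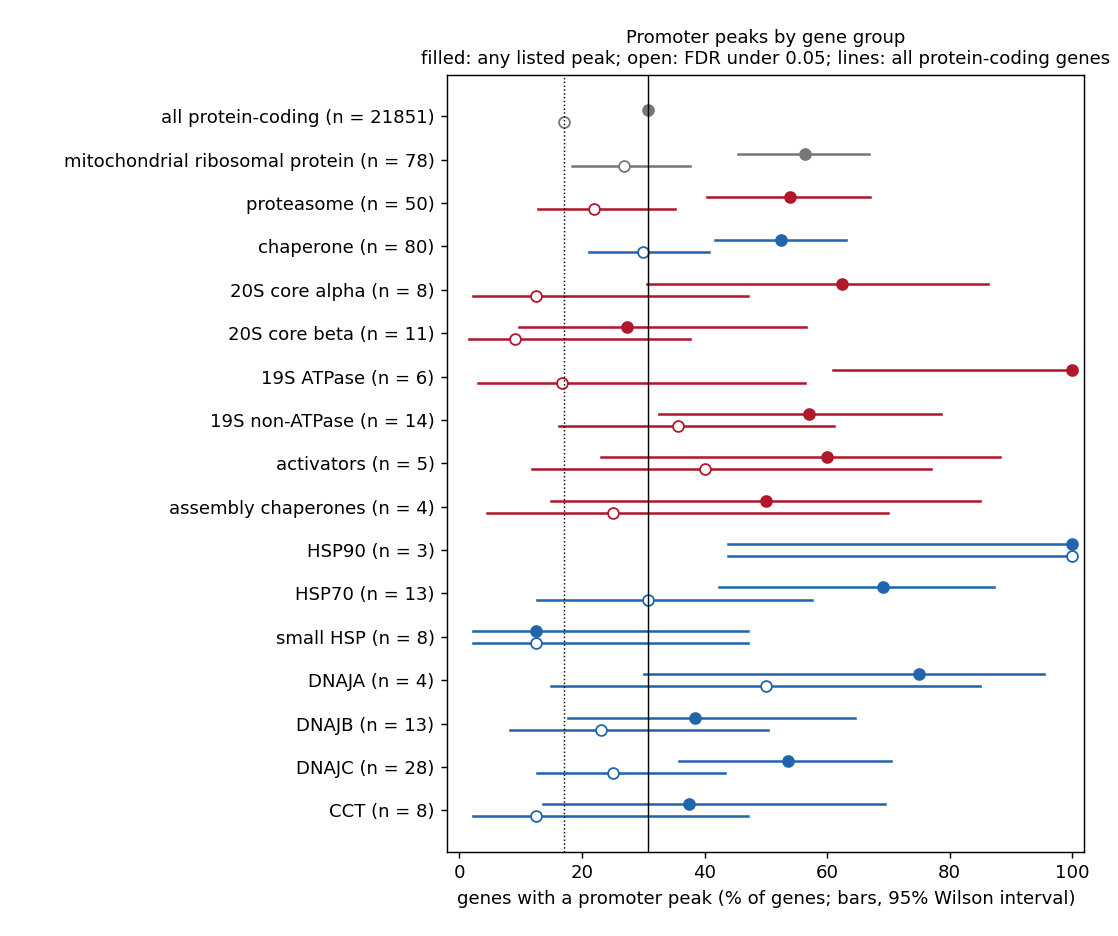
Percentage of genes with a promoter peak in each gene group, with 95% Wilson intervals; filled points count any listed peak, open points peaks with an FDR under 0.05, and the vertical lines mark all protein-coding genes (30.7% solid, 17.0% dotted). All 6 genes of the 19S ATPase ring and all 3 HSP90 genes had a listed peak, against 3 of 11 beta-ring genes and 1 of 8 small heat shock protein genes.

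Most member promoters are CpG islands, the GC-rich start regions of broadly used genes. An island (500 bp, GC of at least 0.55 and an observed to expected CpG ratio over 0.65, within 1 kb of a TSS) was found at 88.0% of proteasome, 83.8% of chaperone and 58.2% of all protein-coding genes. Across all protein-coding genes, a promoter peak stood at 50.1% of genes with an island and at 3.8% of genes without. Among genes with an island, the share was 59.1% for proteasome genes (26 of 44, interval 44.4 to 72.3) and 58.2% for chaperone genes (39 of 67, interval 46.3 to 69.3), and both intervals take in the 50.1%. With an FDR under 0.05 it was 22.7% and 34.3%, against 28.2% of all genes with an island, again inside both intervals. Of the 19 members without an island, Psmd10, Dnajc4, Hspa12a and Hspa12b had a peak (21.1%, interval 8.51 to 43.3). This interval lies above the 3.8% of all genes without an island. By class, the share was 1 of 6 proteasome genes (interval 3.01% to 56.4%, which takes in the 3.8%). For chaperone genes it was 3 of 13 (23.1%, interval 8.18 to 50.3). With an FDR under 0.05, 2 of the 19 members had a peak (interval 2.94% to 31.4%), against 1.53% of all genes without an island. The part that islands play in the counts was not tested further.

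The strongest member peaks stood at chaperone genes. Strength is given as the log2 fold enrichment of ChIP over input at the peak's highest window, by which the list is ranked. Hspa9 (mortalin, the HSP70 of mitochondria) came highest at 3.94, or 15.3-fold, at rank 290. Hspa14 (an HSP70 that sits on ribosomes) followed at 3.87, or 14.6-fold, at rank 335, on chr2:3512500-3513049. That summit also lay in the windows of Cdnf and Gm45902, and it lay 8 bp upstream of the Hspa14 TSS. Psmd1 was the highest proteasome gene, at 3.64 (12.4-fold, rank 578, chr1:86064200-86064599). It encodes the largest scaffold subunit of the 19S base.

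The 3 sets of promoter peaks overlapped widely in strength. The median log2 fold enrichment was 2.22 over 32 proteasome peaks (middle 50% of peaks 2.14 to 2.49), 2.35 over 54 chaperone peaks (2.07 to 2.82) and 2.27 over 8027 promoter peaks of other genes (2.03 to 2.65). An FDR under 0.05 was reached by 13 proteasome peaks (40.6%), 28 chaperone peaks (51.9%) and 46.1% of the others. Among members with a peak, 16 of 69 had 2 or more (23.2%), against 26.2% of all protein-coding genes with a peak.

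**Figure D2:**
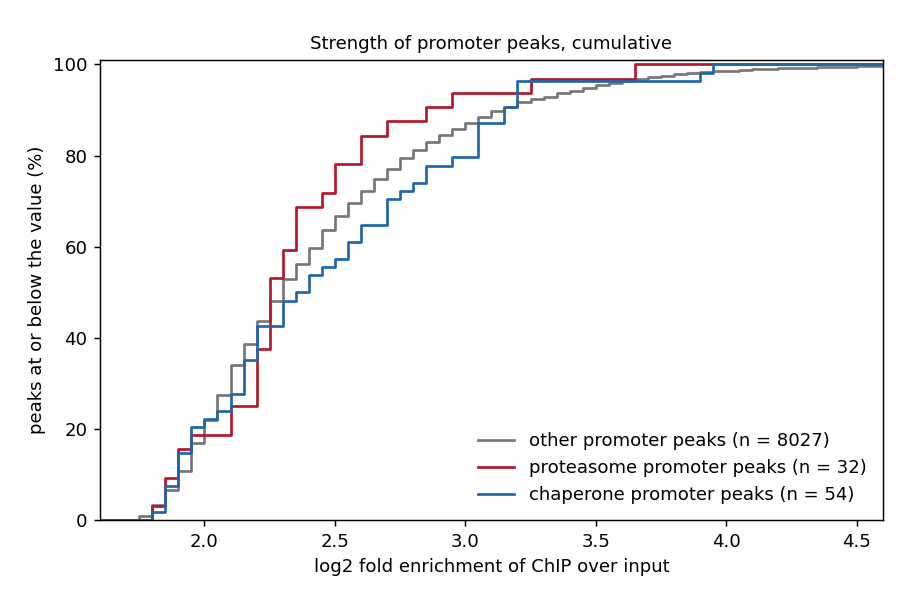
Percentage of promoter peaks at or below each log2 fold enrichment of ChIP over input, for proteasome (red), chaperone (blue) and other genes (grey). The 3 sets have medians of 2.22, 2.35 and 2.27, and 78.1% of proteasome, 57.4% of chaperone and 66.8% of other peaks lie at or below 2.5.

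In the 20S core a peak was listed at 8 of 19 genes, and 2 genes had one with an FDR under 0.05. In the alpha ring, Psma1, Psma2, Psma3, Psma4 and Psma7 had a listed peak, and Psma5, Psma6 and the testis form Psma8 had none. Psma7 alone passed an FDR of 0.05, at 2.83 (FDR listed at 0, chr2:180042300-180042849), with another peak of 2.33 further upstream, nearest to the TSS of the neighbouring gene Ss18l1. Psma3 (2.28, FDR 0.0704), Psma4 (2.16, FDR 0.148), Psma2 (1.90) and Psma1 (1.83, FDR over 0.05) lay below it. In the beta ring, Psmb2 (2.08), Psmb3 (2.35) and Psmb6 (2.22) had a peak, of which Psmb3 passed (FDR 0.0374). Psmb6 encodes a cutting subunit of the standard particle. No peak was listed for Psmb1, Psmb4, Psmb5 or Psmb7, where Psmb5 and Psmb7 are the other standard cutting subunits. The cutting subunits of the immune particle, Psmb8, Psmb9 and Psmb10, and Psmb11 of the thymus particle also had none, and the nearest listed summit was 75143 bp away from Psmb8 and 65117 bp from Psmb9. Only 2 of these 4 genes have a CpG island.

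Of Psmc1 to Psmc6 and the Psmd genes, counted here as the 19S particle, 14 of 20 had a listed peak (70.0%, interval 48.1 to 85.5), against 30.7% of all protein-coding genes. Among those with a CpG island it was 13 of 19 (68.4%, interval 46.0 to 84.6), which takes in the 50.1% of all genes with an island. The 19S subunit genes Adrm1 and Sem1 fall outside these symbols and had no listed promoter peak. The 6 ATPases, which form the unfolding ring, all had a peak, yet Psmc3 alone had one with an FDR under 0.05, at 2.66. The others ran from Psmc6 (2.21) and Psmc1 (2.21) through Psmc2 (2.16) to Psmc5 (1.85) and Psmc4 (1.78). Of the 14 non-ATPase genes 5 had a peak with an FDR under 0.05, and those of Psmd1 and Psmd5 lay above that of Psmc3. After Psmd1 came Psmd5 at 2.91 (chr2:34870700-34871449), Psmd13 at 2.59 (FDR 0.00704, nearest to the TSS of Sirt3), Psmd2 at 2.56 (FDR 0.00706, with a further peak of 1.85) and Psmd10 at 2.49 (FDR 0.0114). Psmd2 is the other large scaffold of the base, Psmd13 a subunit of the lid, and Psmd5 and Psmd10 help assemble the base and then leave it. Peaks with an FDR of 0.05 or more were listed at the lid genes Psmd11 (2.2 and 1.90), Psmd12 (2.15) and Psmd8 (2.095). None was listed at Psmd3, Psmd4, Psmd6, Psmd7, Psmd9 or Psmd14. Psmd14 encodes the enzyme that strips ubiquitin from substrates, and its nearest listed summit lay 100198 bp away.

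Among the genes that cap, block or build the particle, Psmg2 had the highest value at 3.25 (FDR listed at 0, rank 1231). With Psmg1 (2.30, FDR 0.0704) it forms a chaperone pair that starts alpha-ring assembly, and the promoter is shared with Cep76, whose TSS was nearer to the summit. Psmg3 and Psmg4, the pair that acts next, had no listed peak. The activator gene Psme2 had peaks of 2.50 and 2.32 in a promoter shared with Rnf31, Psme3 a peak of 2.44 (FDR 0.0208), and Psme4 a peak of 2.2 (FDR 0.133). Psme1, Psme2b and the inhibitor gene Psmf1 had none. Psme2b is a near-identical copy of Psme2, and how reads were divided between copies is not stated, so its lack of a peak is uncertain. Psmc3ip was taken by its symbol but encodes a meiotic recombination factor, and it had no peak.

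**Figure D3:**
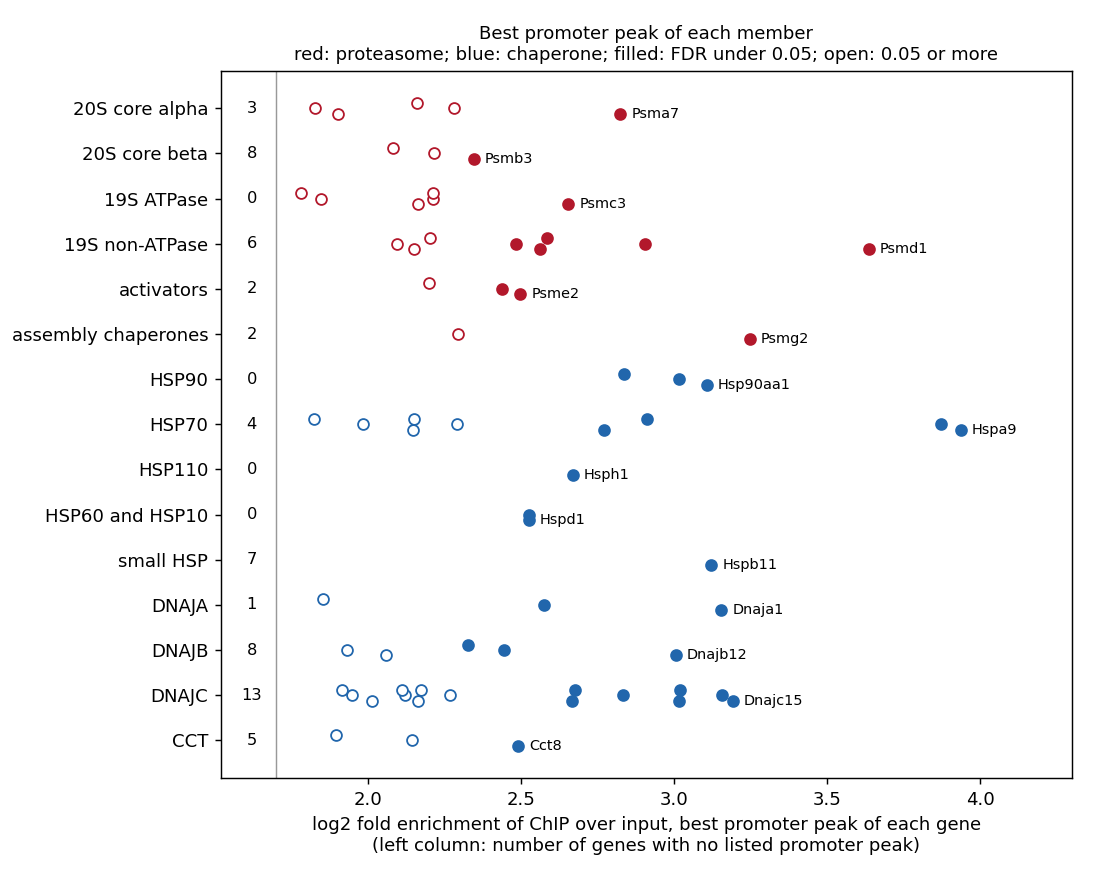
Log2 fold enrichment of ChIP over input for the best promoter peak of each member, by family, with proteasome genes in red and chaperone genes in blue; filled points have an FDR under 0.05, and the left column counts genes with no listed promoter peak. The highest gene of each family is named, from Hspa9 at 3.94 down to Psmb3 at 2.35.

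The 3 HSP90 genes were the only chaperone family of more than 2 genes in which each member passed an FDR of 0.05. Hsp90aa1, the stress-inducible cytosolic form, stood at 3.11 (rank 1627, chr12:110695950-110696749). Hsp90ab1, the constant cytosolic form, had 4 promoter peaks, at 3.02, 2.51, 1.90 and 1.77, with the strongest 771 bp upstream of its TSS. Hsp90b1, the form of the endoplasmic reticulum, had peaks of 2.84 and 2.099 and shares its promoter with Ttc41.

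Of 13 genes with an Hspa symbol, counted here as HSP70, 9 had a promoter peak (69.2%, interval 42.4 to 87.3), against 30.7% of all protein-coding genes. Among those with a CpG island it was 7 of 11 (63.6%, interval 35.4 to 84.8), which takes in the 50.1% of all genes with an island. Besides Hspa9 and Hspa14, Hspa4l (2.91) and Hspa4 (2.77) passed an FDR of 0.05. Both are counted here by symbol alone and encode proteins that help HSP70 release its nucleotide. Hspa8, the constant cytosolic HSP70, had a peak that fell just short (2.29, FDR 0.0704). Hspa13 (2.15), Hspa12a (2.15), Hspa2 (1.99) and Hspa12b (1.82) lay further from the threshold. No promoter peak was listed for the stress-induced genes Hspa1a and Hspa1b, their neighbour Hspa1l, or Hspa5, the HSP70 of the endoplasmic reticulum. Hspa1a and Hspa1b are near-identical copies, so the lack of a peak there is uncertain. The related gene Hsph1 stood at 2.67 (FDR 0.00228). Hspd1 and Hspe1 encode the mitochondrial HSP60 ring and its HSP10 lid from a shared promoter, which held peaks of 2.53 (FDR 0.0114) and 2.27.

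Of 8 small heat shock protein genes only Hspb11 had a promoter peak (12.5%, interval 2.24 to 47.1, which takes in the 30.7% of all protein-coding genes). It held 2, at 3.12 (rank 1586, chr4:107253550-107253899) and 2.72, in a promoter it shares with Lrrc42, whose TSS is nearer to both summits. Despite its symbol, Hspb11 encodes IFT25, a subunit of the transport particle of cilia. Hspb1, Hspb2, Hspb3, Hspb6, Hspb7, Hspb8 and Hspb9 had none, and 3 of the 8 genes lack a CpG island.

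J-domain genes had peaks at 23 of 45 members, against 30.7% of all protein-coding genes and 50.1% of those with a CpG island. By group a peak was listed at 3 of 4 Dnaja genes (interval 30.1% to 95.4%), 5 of 13 Dnajb genes (38.5%, interval 17.7 to 64.5) and 15 of 28 Dnajc genes. Dnaja1, a main partner of cytosolic HSP70, stood at 3.16 (rank 1491, chr4:40722400-40723149), Dnaja3 of mitochondria at 2.58, and Dnaja2 at 1.85, while Dnaja4 had none. In the Dnajb group, Dnajb12 of the endoplasmic reticulum membrane reached 3.01, Dnajb11 2.45 and Dnajb1, the classic HSP40, 2.33 (FDR 0.0374). Dnajb14 (2.06) and Dnajb5 (1.93) did not pass. Dnajb6, which holds back protein aggregates, had no listed peak, nor did Dnajb2, Dnajb3, Dnajb4, Dnajb7, Dnajb8, Dnajb9 or Dnajb13.

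Dnajc genes, a mixed group joined by the J domain, had a peak at 15 of 28 (53.6%, interval 35.8 to 70.5). Among those with a CpG island it was 14 of 24 (58.3%, interval 38.8 to 75.5), which takes in the 50.1% of all genes with an island. Dnajc15 of the mitochondrial import motor was highest at 3.19 (rank 1368, chr14:77874750-77875099). Dnajc7, which links HSP70 with HSP90, had 3.16 and 2.37 with Nkiras2 the gene of the nearest TSS at both. Dnajc25 (3.02), Dnajc16 (3.02), Dnajc14 (2.84, 2.55 and 2.37), Dnajc5 (2.68) and Dnajc4 (2.67) also passed an FDR of 0.05. The other 8 with a peak (Dnajc1, Dnajc2, Dnajc3, Dnajc8, Dnajc10, Dnajc18, Dnajc19 and Dnajc22) did not pass, and lay between 1.92 at Dnajc19 and 2.27 at Dnajc22. No peak was listed for the remaining 13, which were Dnajc5b, Dnajc5g, Dnajc6, Dnajc9, Dnajc11, Dnajc12, Dnajc13, Dnajc17, Dnajc21, Dnajc24, Dnajc27, Dnajc28 and Dnajc30.

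The cytosolic CCT ring folds actin and tubulin. Of the 8 protein-coding genes with a Cct2 to Cct8 symbol, 3 had a peak (37.5%, interval 13.7 to 69.4, which takes in the 30.7% of all protein-coding genes). These are symbol matches and not the full ring, whose subunit gene Tcp1 lies outside the symbols. Cct8 had a peak of 2.49 (FDR 0.0114), Cct3 of 2.14 and Cct7 of 1.90, and Cct2, Cct4, Cct5, Cct6b and Cct8l1 had none. Cct6a is not annotated as protein-coding in the gene set used here and was therefore no member. Its promoter held a weak peak (1.93, FDR 0.727).

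Proteasome summits lay near the start of the gene. The summit lay within 200 bp of the gene's TSS at 28 of 32 proteasome peaks (87.5%, interval 71.9 to 95), at 35 of 54 chaperone peaks (64.8%, interval 51.5 to 76.2) and at 60.6% of the other promoter peaks. The proteasome interval lies above the share of the others. The median distance was 100 bp, 124 bp and 140 bp, and no proteasome summit was further than 594 bp from its TSS. Over all member peaks, 28 summits were intergenic, 27 in a 5′ untranslated region, 9 in a coding exon and 20 in an intron or a non-coding gene. The gene meant here can be a neighbour of the member, and the other promoter peaks were not counted in this way.

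**Figure D4:**
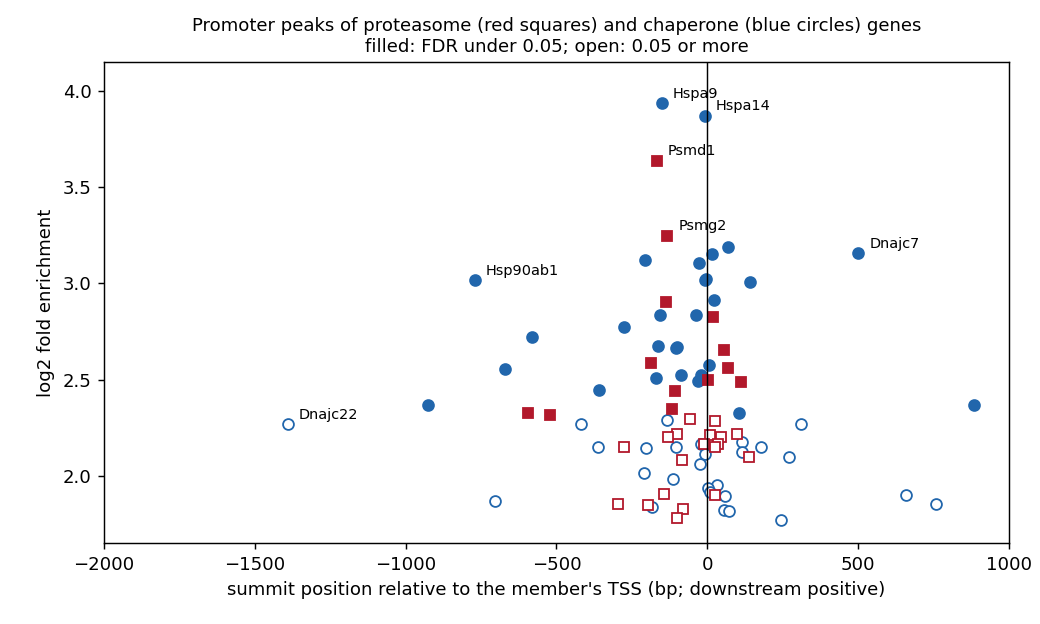
Summit position relative to the TSS of the member gene (x axis, bp, downstream positive) against log2 fold enrichment (y axis), with proteasome genes as red squares and chaperone genes as blue circles; filled symbols have an FDR under 0.05. Proteasome summits lie between 594 bp upstream and 139 bp downstream, and chaperone summits between 1390 bp upstream and 886 bp downstream.

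The window of 2 kb and 1 kb left few members near its edges. The outermost summits inside it were those of Dnajc22 (1390 bp upstream) and Dnajc7 (886 bp downstream). Just outside lay summits 2095 bp upstream of Dnajc22, 2128 bp upstream of Dnajb14 and 1787 bp downstream of Hspb8. At the FDR threshold, the nearest peaks were the weaker Psme2 peak inside (FDR 0.0393) and those of Psmg1, Hspa8, Psma3 and Dnajc22 and the weaker peak of Hspd1 and Hspe1 outside (FDR 0.0704). Of the 61 members without a promoter peak, 10 had a listed summit within 10 kb of a TSS. They were 9 of 38 chaperone genes and 1 of 23 proteasome genes, and no such count was made over all protein-coding genes.

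A number of member promoters are read in both directions. A TSS of another protein-coding gene on the opposite strand, head to head within 1 kb, was found at 10 of 50 proteasome genes (interval 11.2% to 33.0%), 21 of 80 chaperone genes (26.2%, interval 17.9 to 36.8) and 9.0% of all protein-coding genes. Across all genes a promoter peak was listed at 58.2% of those with such a partner and at 28.0% of those without. For proteasome genes the shares were 8 of 10 and 19 of 40 (47.5%), and for chaperone genes 10 of 21 (47.6%) and 32 of 59 (54.2%). Among all genes with a CpG island the gap was smaller, with a peak at 61.2% of those with a partner and 48.2% without. In that set the shares were 7 of 9 and 19 of 35 (54.3%, interval 38.2 to 69.5) for proteasome genes, and 10 of 19 (52.6%, interval 31.7 to 72.7) and 29 of 48 (60.4%, interval 46.3 to 73.0) for chaperone genes. In all, 29 of the 84 member peaks (34.5%) lay in the window of at least 1 more protein-coding gene, against 945 of 8027 other promoter peaks (11.8%). A peak in several windows has more chances to be a member's, so these shares are not like for like. For 15 of the 84 the nearest TSS was that of a gene outside the set. A shared peak cannot be assigned to either gene. A proteasome and a chaperone gene share peaks at 1 place, where Psmc2 and Dnajc2 start back to back, with peaks of 2.16 (FDR 0.148) and 2.15 between and beside their start sites. Other peaks lay in the windows of both genes of a pair, namely Psmd13 with Sirt3, Psmd10 with Atg4a, Psma2 with Mrpl32, Psmc5 with Ftsj3, Psma4 with AY074887, Dnajb11 with Tbccd1, Dnajc14 with Tmem198b, Dnajc25 with Gm20503, Dnajc8 with Atpif1, Cct3 with Tsacc and Cct7 with Pradc1.

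GLI sites were found at a minority of member peaks, as at other promoters. A match to the consensus GACCACCCA with at most 1 mismatch, on either strand, within 250 bp of the summit, was found at 6 of 32 proteasome peaks (18.8%, interval 8.89 to 35.3), 12 of 54 chaperone peaks (22.2%, interval 13.2 to 34.9), 15.2% of other promoter peaks and 20.2% of peaks away from promoters. Both intervals take in the share of other promoters. Within 100 bp of the summit the shares were 6.25%, 9.26% and 7.19% for proteasome, chaperone and other promoter peaks, and within the peak itself 6.25%, 11.1% and 11.2%, so the proteasome share then lay below that of the others. No member peak held the exact consensus, which was found at 93 of the other promoter peaks (1.16%); 0 of 32 and 0 of 54 allow up to 10.7% and 6.64%. Within 250 bp of the 5′ end of the gene, a match was found at 3 of 27 proteasome genes with a peak (interval 3.85% to 28.1%) and 2 of 23 without (2.42% to 26.8%). It was found at 6 of 42 chaperone genes with a peak (6.72% to 27.8%) and 5 of 38 without (5.75% to 27.3%), against 12.5% and 10.4% of other genes with and without a peak, shares that these wide intervals take in. Psmc4 was alone among members in holding the exact consensus there, which 0.767% of other genes with a peak and 0.305% without also held, and it was picked out after its value was seen. The Psmc4 peak is the weakest proteasome peak (1.78, FDR over 0.05), and no match lay within 250 bp of its summit. The proteasome matches and the strongest chaperone matches are printed with 10 bases on either side, from mm10, with the 9-base match in capitals and oriented as the consensus.
Psmd5: aagagactgaGACCGCCCAggggatcaag
Psmd2: tctgcagtcaGACCACCCTtgcacgcaca
Psma7: tcactcagcaGACCATCCAgaaggtgggc
Psmd11: gacgctcctgGGCCACCCAcggggcagag
Dnajc15: cgccgacatcGACCACACAgcggtgagtc
Dnaja1: gctgctcctcCACCACCCAccgagcgttc

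Counting from 1 at the 5′ end of the consensus, with the consensus base given before the site's base, the difference is A5G at Psmd5 (chr2:34871100-34871128, plus strand, in an intron or non-coding gene), A9T at Psmd2 (chr16:20651502-20651530, plus strand, intergenic) and C6T at Psma7 (chr2:180042846-180042874, plus strand). It is A2G at Psmd11 (chr11:80428508-80428536, plus strand, intergenic), C7A at Dnajc15 (chr14:77874791-77874819, minus strand, coding exon) and G1C at Dnaja1 (chr4:40722544-40722572, minus strand, 5′ untranslated region). The Psma7 site lies 427 bp upstream of the Psma7 TSS, in a coding exon outside that gene. The match lay 17 bp from the summit at Psmd5, 30 bp at Psmd11, 52 bp at Dnajc15 and 61 bp at Dnaja1. It lay 206 bp from the stronger Psmd2 summit and 167 bp from the summit of the weaker Psma7 peak. Of the 4 proteasome sites, those of Psmd2 and Psmd11 each lay in the windows of both peaks of their gene and so count at 2 peaks.

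Chaperone peaks held another motif. The heat shock element, the site of the stress factor HSF1, consists of alternating blocks of GAA and TTC. A run of 3 blocks (GAANNTTCNNGAA, either strand) lay within 250 bp of the summit at 8 of 54 chaperone peaks (14.8%, interval 7.7 to 26.6), at 0 of 32 proteasome peaks (interval up to 10.7) and at 35 of 8027 other promoter peaks (0.436%, interval 0.314 to 0.606). The 8 peaks belonged to Dnaja1, Hsp90aa1, Hsph1, Hspd1 with Hspe1, Cct8, Hspa8, the weaker peak of Hsp90b1 and the weaker peak of Hspa9. Of these, 5 had an FDR under 0.05, and the median log2 fold enrichment was 2.51, against 2.30 for the 46 chaperone peaks without the element. The element was not limited to chaperone genes with a peak. Around the 5′ end of the gene it was found at 4 of 42 chaperone genes with a peak and at 2 of 38 without, Cct4 and Dnajb6, against 0.587% and 0.856% of other genes. The sites are printed with 8 bases on either side, from mm10, with the element in capitals, except that of Hspa9.
Dnaja1: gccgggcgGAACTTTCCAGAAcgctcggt
Hsp90aa1: agcctccgGAACCTTCCGGAAgaaccctc
Hsph1: actgaggaGAACTTTCCAGAAtctgcagc
Hspd1 and Hspe1: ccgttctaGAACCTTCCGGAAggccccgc
Cct8: gggatggaGAAGGTTCTAGAAagggaagc
Hspa8: gcgagcgtGAAAGTTCCAGAAcgccgcgg
Hsp90b1: cgccccaaGAACGTTCGAGAAgcggccac

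They lie at chr4:40722526-40722554 for Dnaja1, chr12:110696379-110696407 for Hsp90aa1, chr5:149636280-149636308 for Hsph1 and chr1:55088056-55088084 between Hspd1 and Hspe1. That of Cct8 lies at chr16:87495608-87495636, that of Hspa8 at chr9:40801055-40801083 and that of Hsp90b1 at chr10:86705238-86705266. All are given on the plus strand except that of Cct8, which is on the minus strand. The site centre lay 15 bp from the summit at Hsp90b1, 29 bp at Hsp90aa1, 42 bp at Hspe1, 43 bp at Dnaja1, 143 bp at Hsph1, 195 bp at Cct8 and 217 bp at Hspa8. The sites of Dnaja1, Hsp90aa1, Hsph1 and Hspa8 fall in a 5′ untranslated region and the other 3 in an intron or a non-coding gene.

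Within 250 bp of the summit the ETS core was more frequent at both proteasome and chaperone peaks than at other promoter peaks, with both intervals above the share of the others, and for the antioxidant-type element this held for proteasome peaks. The ETS core CCGGAAG was found at 16 of 32 proteasome peaks (interval 33.6% to 66.4%), 18 of 54 chaperone peaks (33.3%, interval 22.2 to 46.6) and 19% of other promoter peaks. The antioxidant-type element TGACNNNGC, bound by NFE2L2 and its relative NFE2L1, which raises proteasome genes when the proteasome is blocked, was found at 15 proteasome peaks (46.9%, interval 30.9 to 63.6), 13 chaperone peaks (24.1%, interval 14.6 to 36.9) and 20.1% of the others. Around the 5′ end of the gene, the antioxidant-type element was found at 12 of 27 proteasome genes with a peak (44.4%, interval 27.6 to 62.7) and at 4 of 23 without (17.4%, interval 6.98 to 37.1), against 21.3% and 19.3% of other genes. The intervals of the 2 proteasome shares overlap. In RefSeq promoters of 300 bp, taken for genes with and without a peak, this element was found at 6 of 42 proteasome promoters (14.3%, interval 6.72 to 27.8) and 15.0% of all. That search differs from the one at summits in window, start sites, genes and reference set, and which of these accounts for the lower share was not tested. Around the 5′ end the ETS core was found at 11 of 27 proteasome genes with a peak (40.7%, interval 24.5 to 59.3) and 9 of 23 without (39.1%, interval 22.2 to 59.2), against 22.2% and 11% of other genes with and without a peak. There it was found at 10 of 42 chaperone genes with a peak (23.8%, interval 13.5 to 38.5), an interval that takes in the share of other genes, and at 7 of 38 without (18.4%, interval 9.22 to 33.4). The GC box GGGCGG, at 81.2%, 77.8% and 79.5%, and the CCAAT box, at 16 of 32 proteasome, 46.3% of chaperone and 39.8% of other peaks, had intervals for members that take in the share of the others. A match is a run of letters in this window and no record of binding.

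**Figure D5:**
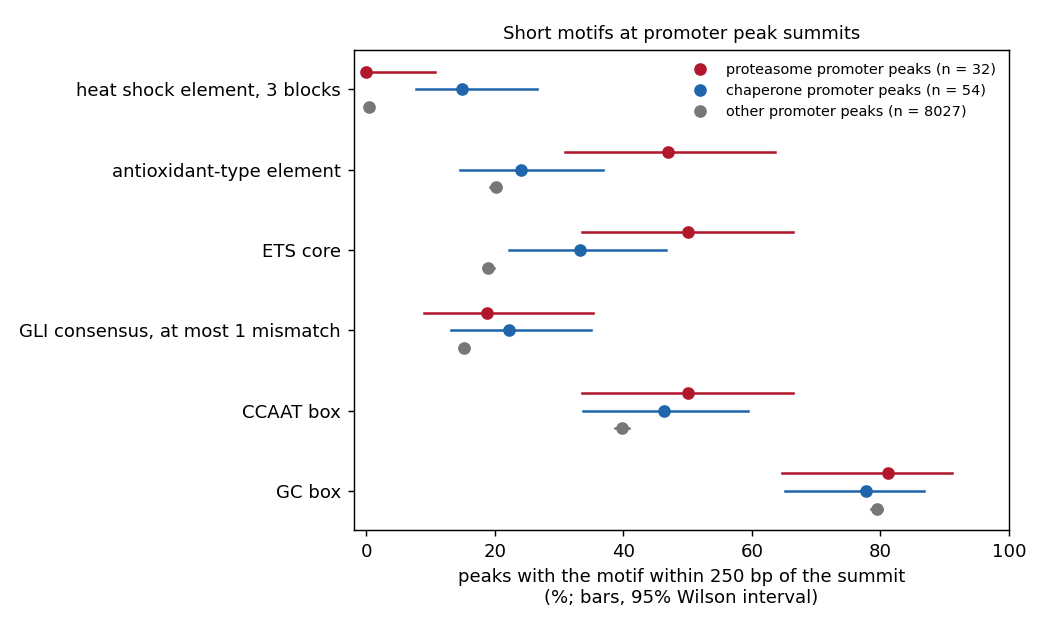
Percentage of promoter peaks with each motif within 250 bp of the summit, with 95% Wilson intervals, for proteasome (red), chaperone (blue) and other promoter peaks (grey). The heat shock element is found at 14.8% of chaperone peaks against 0.436% of the others, and the antioxidant-type element at 46.9% of proteasome and 24.1% of chaperone peaks against 20.1%, and the ETS core at 16 of 32 proteasome peaks and 33.3% of chaperone peaks against 19%.

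Genes that work beside the members were counted in the same way. Of a list of 50 further proteostasis genes, 49 were found in the annotation, 28 had a promoter peak (57.1%, interval 43.3 to 70.0) and 15 had one with an FDR under 0.05 (30.6%, interval 19.5 to 44.5), against 30.7% and 17.0% of all protein-coding genes. Of these genes 95.9% have a CpG island, and among those with an island a peak was listed at 26 of 47 (55.3%, interval 41.2 to 68.6), which takes in the 50.1% of all genes with an island. The genes named from this list were picked after their values were seen. Nfe2l1 had 3 promoter peaks, the strongest at 2.77, and Nfe2l2 had 2, with 3.09. Hsf1, the heat shock factor gene, had a peak that did not pass (2.19, FDR 0.133), and Hsf2 had none. St13, an HSP70 co-factor, stood at 3.54 and Bag6, which escorts stray membrane proteins to the proteasome, at 3.34. Pomp, which matures the 20S core, had a peak of 2.38, and Tcp1, the CCT subunit outside the symbol rule, had none.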

How the data were processed

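The authors aligned the ChIP and input libraries from forelimb buds. The submitters' processing notes name Bowtie2 2.2.5 and the mm10 genome, and the study's methods name CisGenome for peak calling. The deposited list gives every peak a position, an FDR (read here as a q-value), the largest log2 fold enrichment over input, the T statistic (a score, not used here) and a Poisson p-value as −log10, which stops at 100 and was not used for calls. The study's methods name 2 biological replicates, without saying how they entered the call. GEO ties the list to the first ChIP replicate, and it was taken here as made from both with the input. The list holds no read counts, and the study's methods give a minimum depth per library alone, so the precision of each peak is not known here. Positions are printed as listed, and whether counting starts at 0 or 1 is not stated. As a check of the build, 0 placed peak ends lay beyond the end of a GRCm38.p6 (mm10) chromosome. The 5 peaks on unplaced sequence were left out.

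TSSs of protein-coding transcripts came from GENCODE M21 (basic set). Each peak counted for every gene whose window held its summit. The CpG island, motif and partner-gene searches read the genome sequence, and site coordinates count from 1. The same motifs were searched in 300 bp RefSeq promoters. Counts and medians are given with no test, since the list has no value per replicate. Wilson intervals came from scipy 1.17.1, sequence was read with pysam 0.24.0, tables with pandas 2.3.3 and figures with matplotlib 3.10.9. The assignment, motif and island functions were tested on simulated data. Members, gene lists and motifs were chosen with earlier results of these data known.

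Genes named were the 12 proteasome and 15 chaperone genes with the highest enrichment, a list of textbook members, every proteasome gene by part of the particle, the genes nearest to the window edges and to the FDR threshold, and those sharing a promoter peak. Further names of chaperone genes complete the account of each family. The cytosolic ribosomal protein symbols also take in kinase genes and are given in the closing section alone. No sequence is printed for genes on chromosome 18. The alternatives were other FDR thresholds, windows, TSS sets and motif windows.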

Additional observations from a re-analysis of the deposited data

How the results depend on the processing

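Of 51 alternative values for 11 results, 34 stayed within the tolerance set for their kind and 17 did not. An FDR under 0.05 left 11 proteasome, 24 chaperone and 3722 protein-coding genes with a promoter peak, and an FDR under 0.01 left 7 (14%), 19 (23.8%) and 2677 (12.3%). Without the Dnajc genes the chaperone count was 27 of 52, a share of 51.9%. Counts by other windows, TSS sets and overlap rules stayed within 1.5 times, and the lowest were 23 proteasome and 37 chaperone genes. The share of peaks with a GLI match fell with the exact consensus and in the other search windows. The exact consensus gave 0.0% at proteasome, 0.0% at chaperone and 1.16% at other promoter peaks. A window reaching 100 bp to either side of the summit gave 6.25%, 9.26% and 7.19%, and the peak itself 6.25%, 11.1% and 11.2%. These falls follow from the construction of the alternatives, which keep fewer peaks, genes or matches. Peaks with an FDR under 0.05 gave 23.1% for proteasome genes and 17.7% for other genes, both higher than with all listed peaks, and 17.9% for chaperone genes, which was lower. The cause was not tested. No paired analysis was possible because no result comes from a test and the list holds no value per replicate. For the same reason no replicate could be left out in turn. The list gives no reads per peak or promoter, so a gene with no listed peak was not detected and cannot be called unbound.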

Other observations

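Cytosolic ribosomal protein symbols, which also take in ribosomal protein kinase genes, gave 42 genes with a promoter peak and 59 without (41.6% with a peak, interval 32.5 to 51.3, against 30.7% of all protein-coding genes). A peak with an FDR under 0.05 was listed at 20 (19.8%, against 17.0% of all). Among those with a CpG island, 91.1% of the group, the share with any listed peak was 41 of 92 (44.6%, interval 34.8 to 54.7), below the 50.1% of all genes with an island, which the interval takes in. In 300 bp promoters from RefSeq (GRCm38.p6), found for 42 of 50 proteasome and 65 of 80 chaperone genes, the ETS core was present at 15 proteasome promoters (35.7%, interval 23.0 to 50.8), 14 chaperone promoters (21.5%, interval 13.3 to 33.0, which takes in the share of all) and 13.4% of all protein-coding promoters. The heat shock element was present at 4 chaperone promoters (Dnajb6, Hspd1, Hspe1 and Hsph1) and 0.575% of all. The antioxidant-type element was present at 10 chaperone promoters (15.4%). The GC box was present at 54.8% of proteasome promoters (interval 39.9 to 68.8), 73.8% of chaperone promoters (interval 62.0 to 83.0) and 51.0% of all.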
